A study of Mus musculus with 4 samples.

Results

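Cytochrome P450 genes were examined in lists of RNA polymerase II (Pol II) regions from 4 organs of C57BL/6 mice. All 99 protein-coding genes of the GRCm38.p6 gene table (the assembly behind mm10) whose symbol is Cyp followed by a digit were taken, of 21887 protein-coding genes in all. Liver, kidney, lung and heart came from 2 mice, were flash-frozen and crosslinked, and their chromatin was sheared side by side in a 96-well plate and precipitated with 4H8, an antibody to the Pol II C-terminal domain, before tagmentation with Tn5. The labels name no treatment or allele, and the sources used here do not give age, sex or whether a list pools both animals. With 1 list per organ there is no replicate error, and organs were compared without a test. Whole organs were used, so more cells of a type and more polymerase per cell cannot be told apart.

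Cytochromes P450 are haem enzymes that insert an oxygen atom into lipophilic substrates, mostly in the endoplasmic reticulum with electrons from P450 reductase and in a few cases in mitochondria with electrons from ferredoxin. Families Cyp1, Cyp2 and Cyp3 hold most drug- and toxin-metabolising enzymes, Cyp4 mostly fatty acid hydroxylases, and the remaining families act mainly on sterols, bile acids, steroid hormones, vitamin D and retinoids. Hepatocytes are their main site of expression, and rodent Cyp2, Cyp3 and Cyp4 genes form tandem arrays of close copies. The 99 genes fell into 40 subfamilies on 15 chromosomes. A total of 75 stood in 10 clusters, defined as neighbours at most 500 kb apart, and 69 belonged to a subfamily of 2 or more. The sources used here do not say where the authors placed reads that match more than 1 copy, which leaves the values of these 69 genes uncertain.

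Sequencing gave 20058183 tags for liver, 16589890.5 for kidney, 13296938 for lung and 9880184 for heart. Covered percent means how much of the gene span, exons and introns together, lies inside called regions, and a gene is called covered at 50% or more. Tags per kb are the tags in those regions per kb of gene span, scaled by the authors to 10000000 tags per list. A value of 0 means that no region was called, and the lowest tag count of any region was 5.23 in liver, 5.42 in kidney, 5.64 in lung and 6.07 in heart, on the same scale. Markers of the main cell types of liver, kidney and heart followed the organ labels. All 7 hepatocyte markers were covered in liver and none in kidney, lung or heart; all 5 proximal tubule markers were covered in kidney alone, all 5 cardiomyocyte markers in heart alone, and the club cell genes Scgb1a1 and Scgb3a2 over 100% in lung, against at most 11.6% elsewhere. Other lists were less specific. The airway gene Foxj1 was covered over 0% in liver, 71.1% in kidney, 53.5% in lung and 0% in heart, and all 4 markers of nephron segments after the proximal tubule were covered in kidney, with Slc12a3 also in liver (58.5%) and lung (52.2%). Of 5 alveolar genes 3 were covered in liver, 1 in kidney, 5 in lung and 2 in heart, with Sftpc over 74.7% in liver, 0% in kidney, 100% in lung and 0% in heart, and Ager over 97.9% or more in each list.

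The P450 genes were occupied mainly in liver. In liver 50 of 99 were covered, with 13 in kidney, 7 in lung and only 1 in heart (50.5%, 13.1%, 7.07% and 1.01%). Of all protein-coding genes, 21.9% were covered in liver, 21.1% in kidney, 15.1% in lung and 16.1% in heart, so the share of P450 genes stood above the background in liver and below it in the other organs. A region within 1 kb of either gene end was found for 69 P450 genes in liver, 41 in kidney, 25 in lung and 19 in heart, where all genes reached 53.3%, 56.8%, 54.7% and 51.4%. The median P450 gene was covered over 51.6% of its span in liver and 0% in kidney, lung and heart, beside medians over all genes of 2.76%, 5.07%, 3.88% and 2.26%. Of the 57 genes covered somewhere, 46 were covered in a single list, 40 of them in liver, 4 in kidney and 2 in lung. At least 50% in liver with under 10% in each other list was seen for 28 P450 genes (28.3%), against 1.40% of all genes, and 24 of the liver-covered genes had no region inside the gene span in kidney, lung or heart. The like counts were 2 in kidney, 0 in lung and 0 in heart, beside 0.749%, 0.219% and 0.571% of all genes. A total of 42 P450 genes (42.4%) were covered in no list, against 66.9% of all genes. No region lay in 18 of the genes in any list (18.2%, against 28.0% of all genes) and none near either end of 19 (19.2%, against 32.1%).

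**Figure D1:**
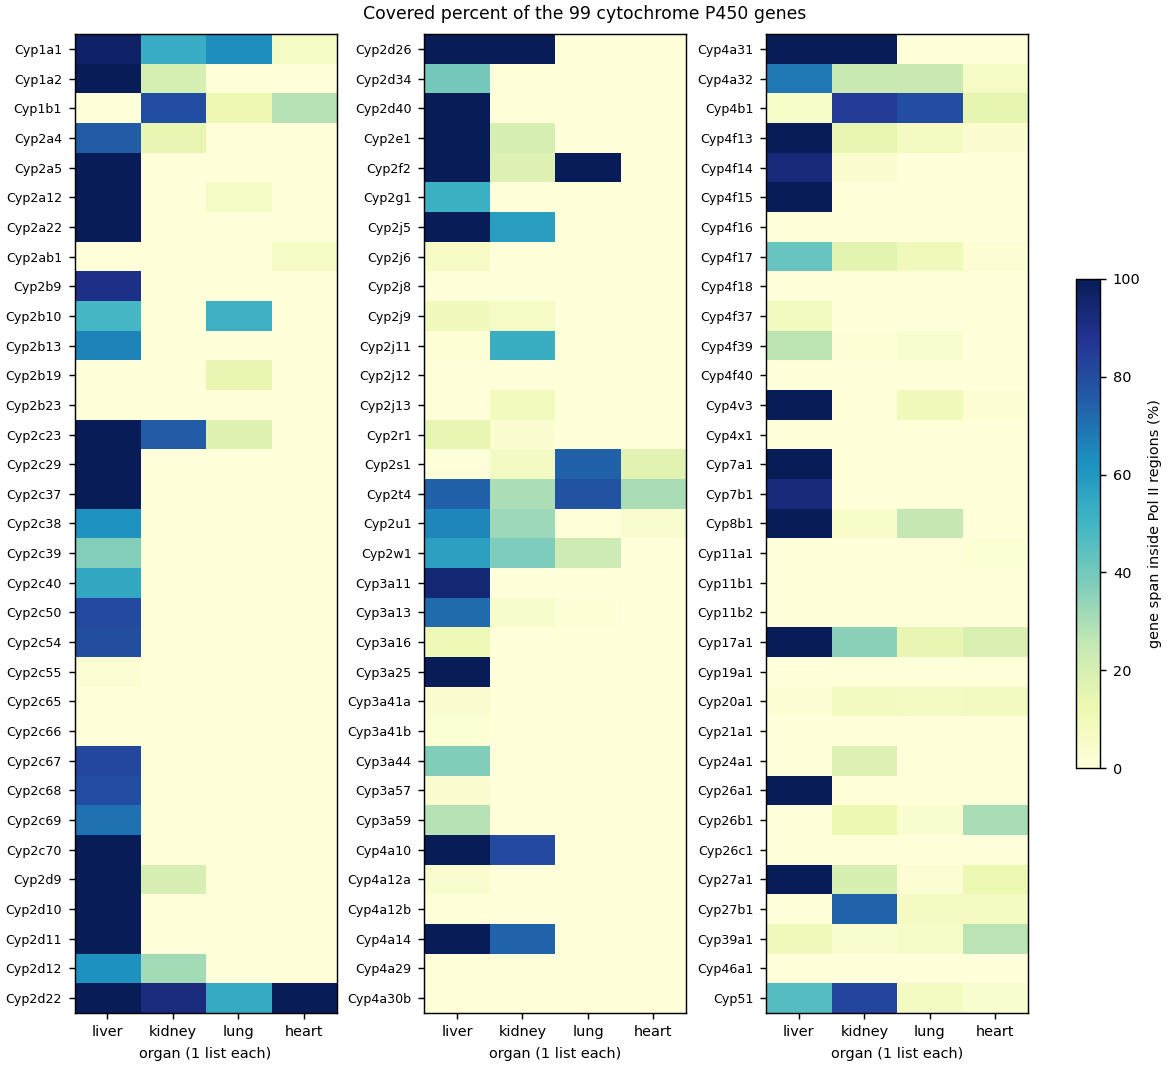
Covered percent of the gene span for each of the 99 P450 genes (rows, in order of family) in the liver, kidney, lung and heart lists (columns, 1 list each), from 0% (light) to 100% (dark). The liver column is dark for most Cyp2a, Cyp2c and Cyp2d genes, and Cyp2d22 is the only row covered at 50% or more in all 4 lists.

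The drug and toxin (xenobiotic) group held the 51 genes of families Cyp1, Cyp2 and Cyp3, without Cyp2r1, Cyp2u1 and the Cyp2j genes. It was set by family and not by substrate, and so includes Cyp2c70 and Cyp2c23. Of these 51 genes, 34 were covered in liver, 5 in kidney, 6 in lung and 1 in heart. Of all genes, 21.9%, 21.1%, 15.1% and 16.1% were covered in the same order. Cyp2e1, which oxidises ethanol and paracetamol (chromosome 7, 140763819 to 140774990), was covered over 100% in liver, 19.9% in kidney and 0% in lung and heart. Its tags per kb were 64.1 in liver (95% Poisson interval 60.9 to 67.5, counting error only) and 3.43 in kidney (2.64 to 4.38). Its liver region began 23.2 kb before the start of transcription, ended 4.34 kb past the gene and reached into Syce1. Cyp1a2, which acts on aromatic amines, had 39.3 tags per kb in liver and 3.91 in kidney, with none in lung or heart. Its liver region reached into Cyp1a1.

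Cyp1a1, the classic target of the aryl hydrocarbon receptor, was covered more widely than Cyp1a2. Its covered percent was 96.7% in liver, 53.0% in kidney, 63.2% in lung and 6.29% in heart, and its tags per kb were 35.0, 9.34, 11.0 and 1.18 in the same order. Liver had the most tags, from 2 regions that each reach beyond the gene. The longer, of 75.8 kb, also overlaps Edc3 and Clk3. The other also covers Cyp1a2, so the liver values of Cyp1a1 and Cyp1a2 are not separate. Kidney and lung did not differ beyond counting error (ratio kidney over lung 0.847, 95% interval 0.705 to 1.02). With tags scaled to genes covered in all 4 lists the ratio was 0.644. The receptor gene Ahr itself was covered over 93.9% in liver, 6.88% in kidney, 64.6% in lung and 16.5% in heart. Cyp1b1, of the same family, had no region in liver (0%) and was covered over 79.7% in kidney, 11.9% in lung and 28.0% in heart.

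The Cyp2c cluster on chromosome 19 (39006940 to 40187286, 14 genes) was occupied in liver almost alone. It held 116 liver regions over 545 kb, or 46.2% of its length, beside 2 kidney regions over 2.17 kb and none in lung or heart. In liver 10 of 14 members were covered, with Cyp2c29, Cyp2c37 and Cyp2c70 over 100%. Cyp2c70, which makes muricholic acids in mice, had 31.2 tags per kb in liver. At the upstream end Cyp2c65 and Cyp2c66 were at 0% and Cyp2c55 at 1.96%, although a liver region of 10.6 kb ended inside Cyp2c55. Cyp2c39 (37.0%) and Cyp2c38 (61.7%) overlap in the annotation, so their shares cannot be told apart. Liver regions filled 51.0% of the member spans and 39.0% of the sequence between them. Cyp2c23, an arachidonic acid epoxygenase gene that lies outside the cluster, was covered over 100% in liver, 76.0% in kidney, 17.2% in lung and 0% in heart, with 36.1 tags per kb in liver, 18.1 in kidney and 3.15 in lung. Its liver region of 127 kb also overlapped Erlin1, Chuk and Cwf19l1, and a kidney region of 52.5 kb over it also overlapped Erlin1.

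The Cyp3a cluster on chromosome 5 was occupied in part. Of its 8 members 2 were covered in liver, and none had a region in kidney, lung or heart. Cyp3a11, the main inducible Cyp3a gene of mouse liver, was covered over 94.3% with 24.5 tags per kb, and Cyp3a25 over 100% with 37.3. Cyp3a44 (37.3% covered), Cyp3a59 (28.0%), Cyp3a16 (11.3%), Cyp3a57 (2.75%), Cyp3a41a (2.48%) and Cyp3a41b (1.92%) made up the rest. Cyp3a13, outside the cluster, was covered over 71.7% in liver, 4.45% in kidney, 1.53% in lung and 0% in heart.

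**Figure D2:**
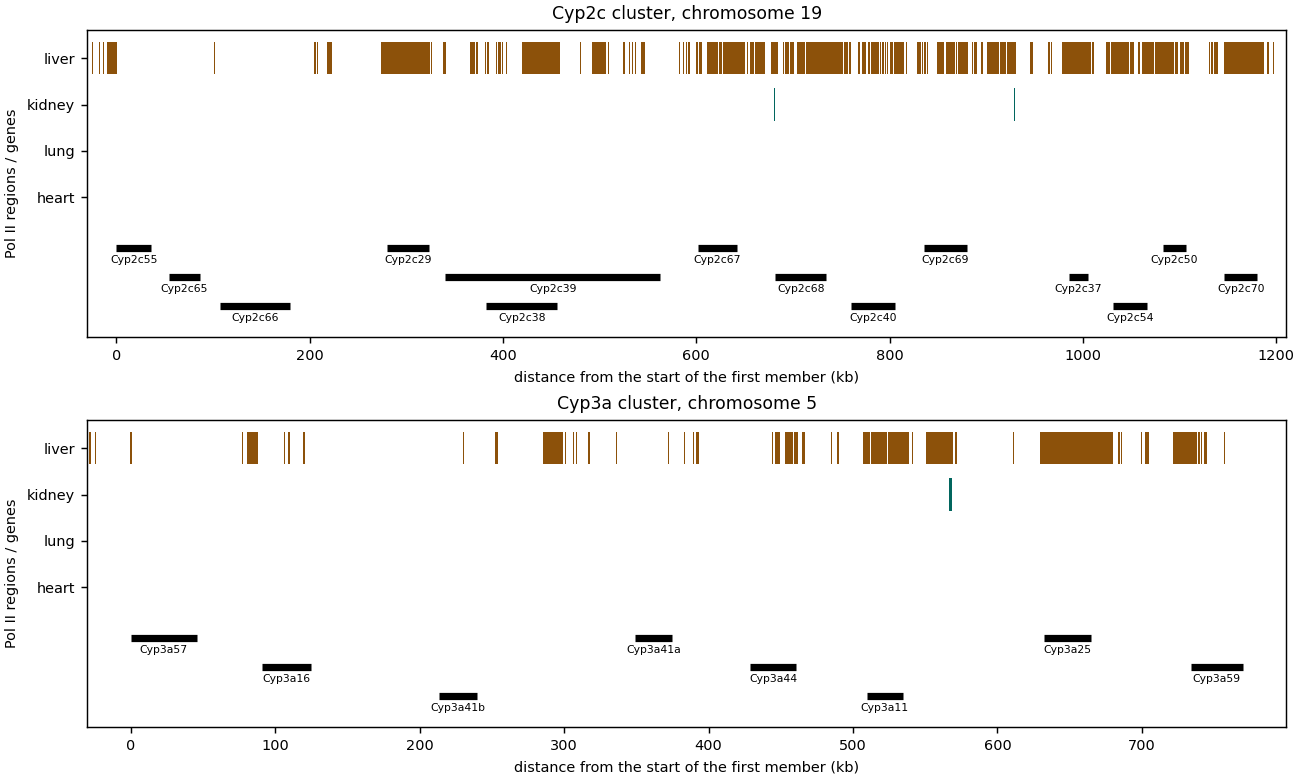
Pol II regions of each list (coloured blocks) over the Cyp2c cluster (14 genes) and the Cyp3a cluster (8 genes), by distance in kb from the start of the first member, with gene spans as black bars below. Liver blocks cover 46.2% of the Cyp2c cluster and 24.3% of the Cyp3a cluster, whereas lung and heart hold none in either.

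The promoters of 2 Cyp3a genes are shown because they are nearly the same in sequence while coverage of the gene span in liver is not. A liver region lay over the start of both genes, and that at Cyp3a57 was 1.06 kb long. Over the 250 bases before the start of transcription, 16 of 193 pairs within a subfamily were at least 80% identical, and Cyp3a25 and Cyp3a57 (88.9% identical) differed most in liver, at 100% and 2.75%. RefSeq sequence (GRCm38.p6) is given 5′ to 3′ without the bases inside the annotated gene span, for Cyp3a25 at chr5:146009645-146009868, minus strand and for Cyp3a57 at chr5:145345019-145345148, plus strand, with capitals marking AGGTCA on either strand, the core bound by nuclear receptors.
Cyp3a25: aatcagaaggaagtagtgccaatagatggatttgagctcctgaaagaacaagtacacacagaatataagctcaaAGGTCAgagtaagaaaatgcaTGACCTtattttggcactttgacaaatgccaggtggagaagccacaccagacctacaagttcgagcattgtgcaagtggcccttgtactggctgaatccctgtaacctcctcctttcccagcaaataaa
Cyp3a57: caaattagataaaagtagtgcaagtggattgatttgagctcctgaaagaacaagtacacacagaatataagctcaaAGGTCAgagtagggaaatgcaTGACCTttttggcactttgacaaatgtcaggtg
Both windows hold the core on both strands, beginning 176 and 155 bases before the start in Cyp3a25 and 174 and 153 bases before it in Cyp3a57. The match is a description of the letters and says nothing of binding.

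The Cyp2d cluster on chromosome 15 (82370527 to 82794452, 8 genes) was the most densely filled in liver, with 70.9% of its 424 kb inside 35 regions, compared with 14.0% for kidney, 1.24% for lung and 2.76% for heart. In liver 7 of 8 members were covered, and Cyp2d34 was at 39.5%. Cyp2d22, Cyp2d11 and Cyp2d10 lay in 1 liver region of 41.7 kb and so share the value of 72.8 tags per kb, the highest of the 99 genes in any list. Cyp2d9 had 41.0 tags per kb in liver and 3.88 in kidney, and Cyp2d26 had 47.6 and 22.0, with no lung or heart region in either. Of 11 Cyp2d pseudogenes on the same chromosome, 8 were covered in liver, and 69.0% of the sequence between the members lay inside liver regions.

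Cyp2d22 was the exception to the organ pattern. It was covered over 100% in liver, 91.5% in kidney, 53.8% in lung and 100% in heart, with 72.8, 26.9, 11.9 and 31.0 tags per kb. It was the only one of the 99 Cyp genes covered in heart, where a 13.6 kb region spanned it and no other protein-coding gene (background for coverage in all 4 lists, 8.04% of genes). Liver was higher than kidney (ratio 2.71, interval 2.43 to 3.02, or 2.32 with the scaling to shared genes). That liver value is the mean of a region that also covers Cyp2d11 and Cyp2d10, so it is not of Cyp2d22 alone. Kidney and heart were within counting error of each other (kidney over heart 0.869, 0.748 to 1.01), and the direction turned with the scaling to shared genes (1.04).

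The promoter of Cyp2d11 is shown because this gene shares the highest tags per kb, with capitals marking TATAAA, the TATA box, on either strand, in the RefSeq window at chr15:82394023-82394272, minus strand.
Cyp2d11: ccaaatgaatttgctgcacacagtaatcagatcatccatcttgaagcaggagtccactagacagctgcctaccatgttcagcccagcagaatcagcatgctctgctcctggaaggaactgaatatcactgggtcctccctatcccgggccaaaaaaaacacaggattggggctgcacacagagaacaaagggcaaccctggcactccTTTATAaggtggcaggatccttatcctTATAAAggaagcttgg
The matches begin 43 and 16 bases before the start. Cyp2d22 is covered in 4 organs and Cyp2d11, its neighbour, in liver alone.

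On chromosome 7 a cluster of 13 genes from Cyp2s1 to Cyp2t4 was divided between liver and lung. In liver 9 were covered and in lung 4, against none in kidney and heart. All 4 Cyp2a genes were covered in liver alone, over 100% in Cyp2a5, the coumarin hydroxylase gene, Cyp2a12 and Cyp2a22 and over 75.4% in Cyp2a4. Cyp2f2, which activates naphthalene in club cells of the airway, was covered over 100% in liver, 17.9% in kidney, 100% in lung and 0% in heart. Its tags per kb were 54.6 in liver (51.8 to 57.4), 3.10 in kidney (2.42 to 3.92) and 32.2 in lung (29.6 to 34.9), so liver stood above lung (ratio 1.70, interval 1.54 to 1.87, or 1.11 with the scaling to shared genes). The lung region over Cyp2f2 was 31.8 kb long, the longest lung region over any of the 99 genes.

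Cyp2b10, the phenobarbital-responsive target of the receptor CAR, was covered to a like extent in liver (49.4%) and lung (51.4%), with 11.9 and 12.8 tags per kb (ratio liver over lung 0.931, interval 0.828 to 1.05, or 0.606 with the scaling to shared genes), and had no region in kidney or heart. These shares lie on either side of the limit of 50%, and Cyp2g1 in liver (51.6%) and Cyp2j11 in kidney (52.4%) lie just above it. Cyp2b9 and Cyp2b13 were covered in liver alone, over 90.0% and 65.9%. Cyp2s1 was highest in lung, with 0% in liver, 7.11% in kidney, 74.2% in lung and 16.4% in heart. Cyp2t4 was covered over 74.0% in liver, 29.7% in kidney, 78.4% in lung and 30.4% in heart, and its liver region also overlapped Egln2, Rab4b, Mia, Snrpa and BC024978. Between the members of this cluster, regions filled 227 kb in liver, 20.1 kb in kidney, 93.0 kb in lung and 0.829 kb in heart.

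**Figure D3:**
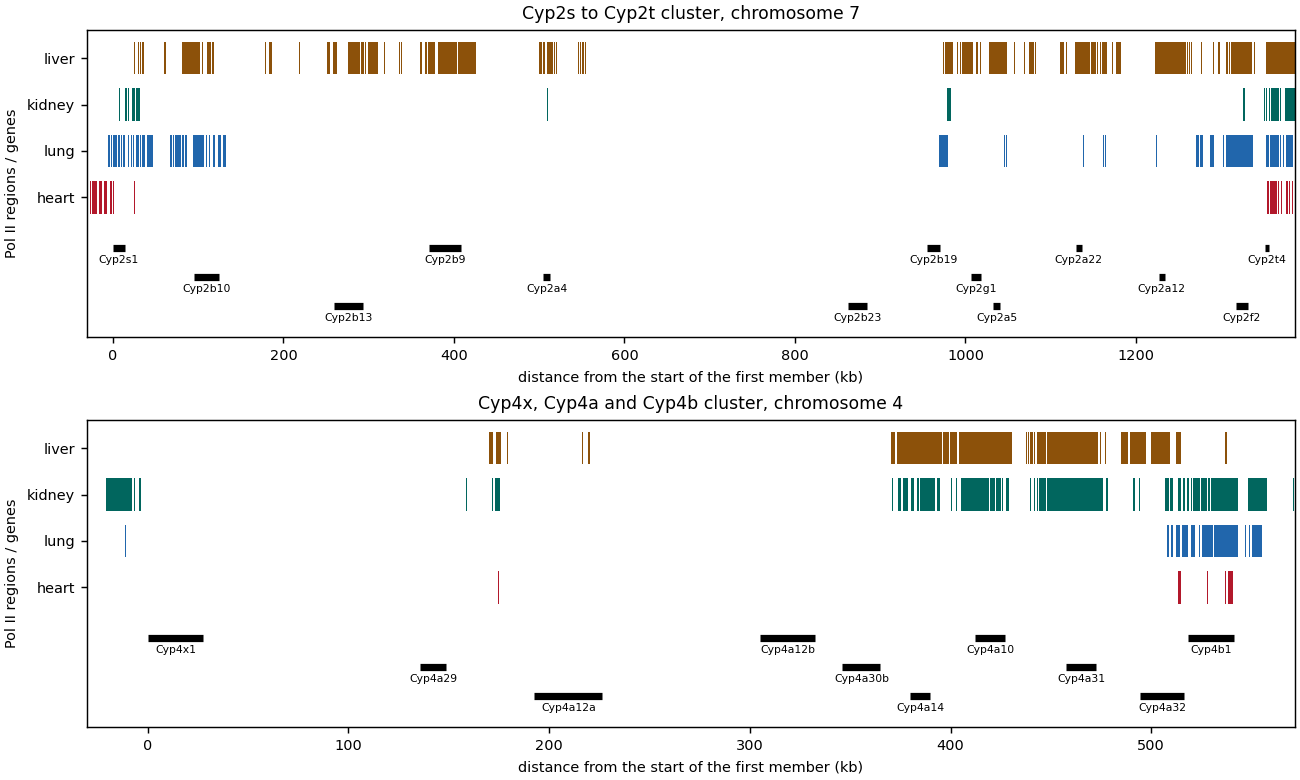
Pol II regions of each list (coloured blocks) over the Cyp2s to Cyp2t cluster (13 genes) and the Cyp4x, Cyp4a and Cyp4b cluster (10 genes), by distance in kb from the start of the first member, with gene spans as black bars below. Lung blocks lie around Cyp2s1, Cyp2b10, Cyp2b19, Cyp2f2 and Cyp2t4 and at Cyp4b1, and kidney blocks reach from Cyp4a14 to Cyp4b1.

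Of the 28 genes of fatty acid and eicosanoid metabolism (the Cyp4 and Cyp2j genes and Cyp2u1), 10 were covered in liver, 6 in kidney, 1 in lung and none in heart. The shares over all genes were 21.9%, 21.1%, 15.1% and 16.1%, so the kidney count stood near the background. Cyp4a10 and Cyp4a14, omega-hydroxylase genes under the receptor PPARα, were covered over 100% in liver and over 80.7% and 73.7% in kidney, with 46.4 and 42.6 tags per kb in liver against 17.7 and 17.2 in kidney. Cyp4a31 differed little between these organs, at 100% in both and 23.5 tags per kb in liver against 26.0 in kidney (ratio liver over kidney 0.902, or 0.773 with the scaling to shared genes). Cyp4x1, Cyp4a29, Cyp4a12b and Cyp4a30b had no region in any list. Ppara, the receptor gene, was covered over 100% in liver, 91.1% in kidney, 11.6% in lung and 92.6% in heart, although no Cyp4a gene passed 6.08% in heart.

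Cyp4b1, known for activating furan toxins in lung, lies at the end of the same cluster (chromosome 4, 115624698 to 115647721) and had another distribution. It was covered over 4.92% in liver, 85.0% in kidney, 79.9% in lung and 14.7% in heart, with 0.738, 23.5, 19.4 and 2.84 tags per kb. Kidney was slightly above lung (ratio 1.21, interval 1.09 to 1.34), an order that turned with the scaling to shared genes (0.920), and liver was below both. Its neighbour Cyp4a32 was highest in liver (68.6%, compared with 24.3% for kidney, 23.7% for lung and 6.08% for heart).

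The promoters of Cyp2f2 and Cyp4b1 are printed because these 2 had the most tags per kb in lung of the 99 genes. They lie at chr7:27119705-27119954, plus strand, and chr4:115647722-115647971, minus strand, and capitals mark AGGTCA, which begins 221 bases before the start of Cyp2f2; none of the 6 motifs named further on occurs in the window of Cyp4b1.
Cyp2f2: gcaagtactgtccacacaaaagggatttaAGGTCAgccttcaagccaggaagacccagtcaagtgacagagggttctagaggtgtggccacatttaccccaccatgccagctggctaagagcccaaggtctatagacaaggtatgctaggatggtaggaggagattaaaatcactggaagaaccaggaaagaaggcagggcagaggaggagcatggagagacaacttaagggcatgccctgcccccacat
Cyp4b1: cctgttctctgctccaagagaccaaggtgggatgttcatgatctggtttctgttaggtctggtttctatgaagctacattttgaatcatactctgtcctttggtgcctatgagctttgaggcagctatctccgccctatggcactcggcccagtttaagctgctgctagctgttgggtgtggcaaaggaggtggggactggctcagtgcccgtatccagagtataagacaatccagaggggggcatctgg

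In the Cyp2j cluster on chromosome 4, whose products make epoxides of arachidonic acid, coverage differed between neighbours. Cyp2j5 was covered over 100% in liver and 58.1% in kidney (31.1 and 13.7 tags per kb), and Cyp2j11 over 0.923% in liver and 52.4% in kidney (0.147 and 12.8). Cyp2j8 and Cyp2j12 had no region in any list. No member of this cluster had a lung or heart region. In the Cyp4f cluster on chromosome 17, which includes leukotriene hydroxylase genes, Cyp4f13 and Cyp4f15 were covered over 100% and Cyp4f14 over 92.8% in liver. A single liver region of 41.6 kb lay over both Cyp4f13 and Cyp4f14, so their values are not separate. The highest kidney share in the cluster was 15.9% (Cyp4f17). Cyp4v3, outside the clusters on chromosome 8, had 48.6 tags per kb in a 101 kb liver region that also overlapped F11, Klkb1 and Fam149a.

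Of 6 genes of bile acid and oxysterol metabolism, 4 were covered in liver and none elsewhere. The background over all genes was 21.9% in liver, 21.1% in kidney, 15.1% in lung and 16.1% in heart. Cyp7a1, which catalyses the first and rate-limiting step from cholesterol to bile acids, had 36.8 tags per kb in liver and no region in the other lists, and Cyp7b1, the oxysterol hydroxylase gene (172 kb), was covered over 92.5% with 22.3 tags per kb, likewise with no region elsewhere. Cyp8b1, which directs synthesis toward cholic acid, had 50.9 tags per kb in liver, 1.10 in kidney, 4.24 in lung and none in heart, in a liver region of 52.4 kb shared with Ackr2. Cyp27a1, the mitochondrial sterol hydroxylase gene, had 40.5, 3.97, 0.364 and 2.58 tags per kb in liver, kidney, lung and heart (ratio liver over kidney 10.2, interval 8.69 to 12.0). Its liver region of 35.2 kb and a kidney region of 1.73 kb also overlapped Prkag3. Cyp39a1, another oxysterol hydroxylase gene, was highest in heart (27.0%, against 9.86% in liver, 3.43% in kidney and 5.48% in lung), and part of that came from a region shared with its neighbour Slc25a27. Cyp46a1, the cholesterol hydroxylase of neurons, had no region in its span in any list.

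**Figure D4:**
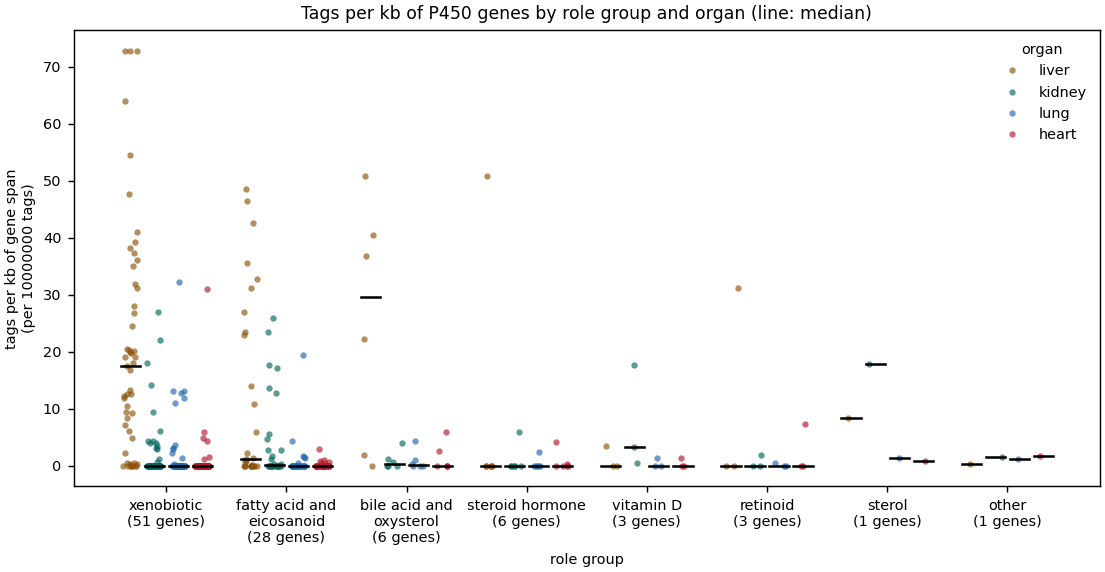
Tags per kb of gene span, scaled to 10000000 tags per list, for each P450 gene (points) by role group and organ, with medians as black lines (1 list per organ). In the xenobiotic group the liver median is 17.4 and those of kidney, lung and heart are 0; the bile acid and oxysterol group has a liver median of 29.5.

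Genes of steroid hormone synthesis were mostly empty. Cyp11b1 and Cyp11b2 of the adrenal cortex, Cyp19a1 (aromatase) and Cyp21a1 had no region in their spans in any list, and Cyp11a1, the cholesterol side-chain cleavage gene, was at 1.72% in heart and 0% elsewhere. The adrenal markers were low in kidney too, with Mc2r at 0%, Nr5a1 at 3.31%, Hsd3b1 at 2.87% and Star at 31.3%. Cyp17a1 differed, with 100% covered in liver, 35.2% in kidney, 14.2% in lung and 18.9% in heart (50.9, 5.84, 2.38 and 4.11 tags per kb). The liver region was 100 kb long and also overlapped Sfxn2 and Wbp1l, and a non-coding gene, Gm41857, lies across Cyp17a1, so the signal cannot be assigned to Cyp17a1 alone.

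Cyp27b1, Cyp24a1 and Cyp51, of vitamin D and sterol metabolism, were highest in kidney. Cyp27b1, which makes the active hormone in the proximal tubule (chromosome 10, 127048246 to 127054884), was covered over 73.5% in kidney, against 0% in liver and 7.53% in both lung and heart, with 17.7 tags per kb in kidney (15.3 to 20.4), 1.36 in lung and 1.37 in heart. Cyp24a1, which inactivates the hormone, was covered over 17.6% in kidney, where a region is shared with the overlapping gene Pfdn4, and 0% in the others, and Cyp2r1, which acts earlier in the pathway, over 14.4% in liver, 2.62% in kidney and 0% in lung and heart. The vitamin D receptor gene Vdr was covered over 0% in liver, 89.2% in kidney, 2.12% in lung and 4.40% in heart. Cyp51, the lanosterol demethylase of cholesterol synthesis, had 8.38 tags per kb in liver, 17.8 in kidney, 1.36 in lung and 0.725 in heart (ratio liver over kidney 0.470, interval 0.415 to 0.532). A region shared with Akap9 was part of the signal in both organs, 10.9 kb long in liver and 12.6 kb in kidney.

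Among the retinoic acid hydroxylase genes, Cyp26a1 was covered over 100% in liver with 31.1 tags per kb and had no region in its span elsewhere. Cyp26b1 was highest in heart (30.1%, against 0% in liver, 12.2% in kidney and 3.41% in lung), and Cyp26c1 had no region in its span in any list. Cyp20a1, whose substrate is not established, was covered over 2.31% to 7.90% in the 4 lists.

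In genes covered in both liver and kidney, tags per kb were mostly higher in liver. Of these 8 genes, 6 had at least 2-fold more in liver (background among all genes covered in both, 12.1%), or 4 with the scaling to shared genes. The ratios of liver over kidney ran from 0.902 in Cyp4a31 and 1.99 in Cyp2c23 to 3.74 in Cyp1a1. In the 4 genes covered in both liver and lung the ratio of liver over lung was 1.53 in Cyp2t4, 1.70 in Cyp2f2, 3.17 in Cyp1a1 and 6.14 in Cyp2d22. With the scaling to shared genes these ratios were 0.996, 1.11, 2.06 and 4.00, so Cyp2t4 was then level between liver and lung. Liver regions over Cyp2t4, Cyp1a1 and Cyp2d22 also overlapped other genes. Genes covered in 1 of the 2 lists were chosen by their coverage, which favours a difference in tags. The counts over all genes with a region in both lists and coverage in at least 1 are therefore given with nothing read from them. For liver over kidney 22 of 27 had at least 2-fold more (background 26.0%), among them all 16 covered in liver and not in kidney, and 3 at least 2-fold fewer (16.6%), all covered in kidney and not in liver. For liver over lung 12 of 16 had at least 2-fold more and 1 fewer (background 44.3% and 11.7%), for liver over heart 9 of 9 had at least 2-fold more (33.9%), and for kidney over lung 5 of 10 had at least 2-fold more and 3 fewer (33.1% and 9.56%). For kidney over heart 5 of 6 had at least 2-fold more (25.1%), and for lung over heart 4 of 5 and 1 fewer (11.3% and 30.7%), with Cyp2d22 the only gene of these covered in heart. Covered P450 genes had a median of 31.2 tags per kb of region in liver (16.4 to 72.8), 23.6 in kidney, 22.0 in lung and 31.0 in heart, where all covered genes had medians of 25.8, 22.9, 21.0 and 28.4.

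Transcription starts and strands were known from RefSeq for 77 of the 99 genes, with 87 windows since some have more than 1 start. A window from 250 bases before to 50 after a start held a region for 48 of the 77 genes in liver, 20 in kidney, 12 in lung and 5 in heart (62.3%, 26.0%, 15.6% and 6.49%). Of all 17492 genes with such a window, 48.0% had a region there in liver, 48.8% in kidney, 44.4% in lung and 43.3% in heart. Of the 38 liver-covered genes with a known strand, 36 had a region over the start, reaching a median of 6.10 kb before it, and 37 had one over the end, reaching a median of 5.53 kb past it. At 5 to 5.5 kb before the start a mean of 76.1% of the liver-covered P450 genes' flank lay inside regions, against 56.2% for all liver-covered genes, the widest gap of any step before the start. At 5 to 5.5 kb after the end the means were 64.4% and 60.9%, and at 4.5 to 5 kb after it 58.4% and 63.4%, so the order there changed between steps. These flanks include neighbouring genes, and 29 of the 50 liver-covered genes lay wholly inside 1 region.

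**Figure D5:**
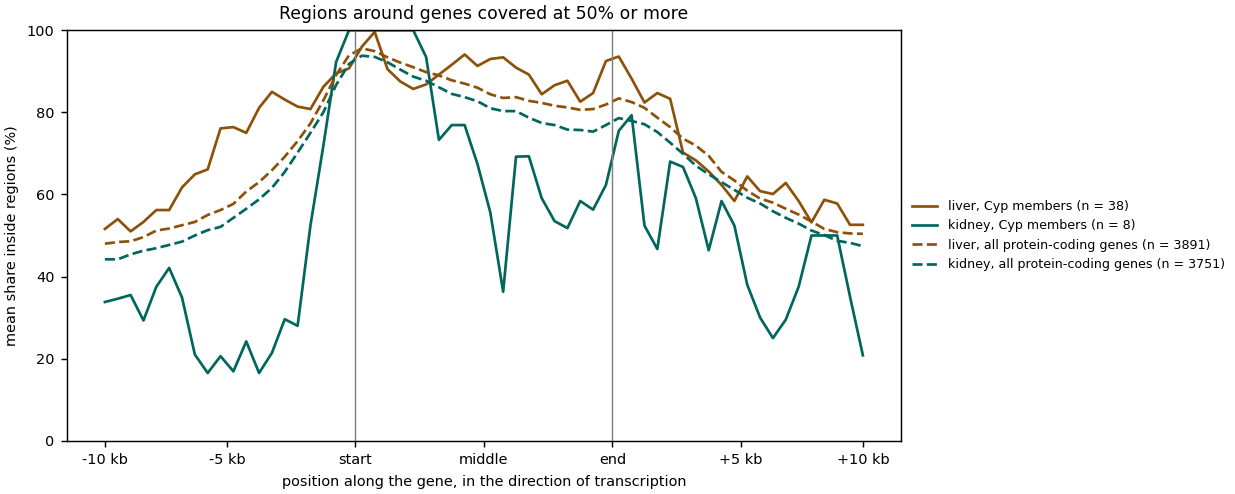
Mean share of each step inside Pol II regions, from 10 kb before the start to 10 kb after the end, for genes covered at 50% or more with a known strand, P450 genes (solid) and all protein-coding genes (dashed), in liver and kidney. Before the start, the liver curve of 38 P450 genes lies above that of all genes, at 76.1% against 56.2% near 5 kb. The step nearest the start is the exception (90.7% against 93.9%). The kidney curve rests on 8 P450 genes.

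The promoter windows of the family were searched for 6 motifs and set beside those of all genes. Over the 250 bases before the start, on either strand, TATAAA occurred in 34.5% of 87 P450 windows against 11.6% of 21263 windows of all protein-coding genes, GTTAAT, the core of the HNF1 site, in 12.6% against 5.86%, and AGGTCA in 21.8% against 12.8%. TTGCG, the first letters of the C/EBP site, occurred in 5.75% against 17.4%, GCGTG, the core of the Ahr site, in 19.5% against 33.8%, and CACGTG, the E-box, in 2.30% against 6.63%. In windows of genes covered in liver, TATAAA was present in 20 of 42, against 10 of 45 windows of genes not covered there. The like counts were 8 against 3 for GTTAAT, 10 against 9 for AGGTCA, 5 against 0 for TTGCG, 1 against 1 for CACGTG and 5 against 12 for GCGTG. Close copies share their promoters, so these windows are not independent and no test was made.

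Genes that serve or control P450 enzymes were covered in liver in most cases, and often in other organs as well. The background over all genes was 21.9% in liver, 21.1% in kidney, 15.1% in lung and 16.1% in heart. All 6 electron donor genes were covered in liver, compared with 3 for kidney, 4 for lung and 2 for heart. Por, the reductase for all microsomal P450 enzymes, was covered over 100%, 95.8%, 94.3% and 45.5% in liver, kidney, lung and heart. Of 8 haem synthesis genes, 7 were covered in liver, 6 in kidney, 4 in lung and 4 in heart, and Alas1, the first enzyme of the path in liver, had 67.7, 42.9, 33.8 and 23.8 tags per kb. Of 17 regulators, 14 were covered in liver, 9 in kidney, 4 in lung and 6 in heart. The xenobiotic receptor gene Nr1i2 (PXR) was at 100% in liver, 11.5% in kidney, 1.35% in lung and 0% in heart, and Nr1i3 (CAR) at 100%, 49.3%, 19.3% and 100%. Tbxas1 and Ptgis, P450 genes under other symbols that make thromboxane and prostacyclin, did not follow the liver pattern, with Ptgis at 1.79% in liver, 2.04% in kidney, 32.6% in lung and 51.8% in heart.

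Some mouse liver P450 genes differ between the sexes. Of 3 genes known as higher in males, Cyp2d9 (100%) and Cyp7b1 (92.5%) were covered in liver and Cyp4a12a was at 3.85%. Of 6 known as higher in females, Cyp2b9 (90.0%), Cyp2a4 (75.4%) and Cyp2b13 (65.9%) were covered, and Cyp3a44 (37.3%), Cyp3a41a (2.48%) and Cyp3a41b (1.92%) were not. Xist, the RNA of the inactive X chromosome, was covered over 18.4% in liver, 12.0% in kidney and 0% in lung and heart. Of the Y-linked genes, Ddx3y was covered over 5.70% in liver and 0% elsewhere. Uty was covered over 0.311% in both liver and kidney, 0% in lung and 0.514% in heart. Kdm5d and Eif2s3y were at 1.38% and 0.329% in heart and 0% elsewhere. The part of sex in these values was not tested.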

How the data were processed

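Pol II regions were analysed from 1 list per organ (liver, kidney, lung and heart). Reads were mapped to mm10 with Bowtie2 2.2.8 and regions called with HOMER 4.8, per the submitters' processing notes, in histone style with 500 bp windows joined into regions, a Poisson p of 1.000000e-03 and no control in the recorded command, per the file headers. Signal was deposited as tags per region on a scale of 10000000 tags per list. The deposited score and the deposited clonal ratio are the caller's own, per the file headers; the score served only to choose regions in an alternative. Region lengths were also deposited.

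Gene spans came from the GRCm38.p6 table (chromosomes 1 to 19, X and Y). A region's tags were shared out by overlapped length and divided by gene span. Ratios of 2 lists were formed only where both had a region, with exact conditional Poisson intervals at 95% (counting error only, tags taken as evenly spread in a region). The overlap code was tested on simulated data, where 100% of 2000 spans equalled a per-base count. Python 3.11.15, numpy 2.4.6, pandas 2.3.3 and scipy 1.17.1 were used.

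The members and lists were chosen with earlier results of these data known. All members could be named; full values went to the leading members of each role group, those covered outside liver, and those of small groups. Protein identities were not used here, so every member of a subfamily of 2 or more was treated as having close paralogs, in place of the 80% identity limit. Alternatives covered the thresholds, windows, subsets of regions, tag scaling, cluster distance and genes without close paralogs.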

Additional observations from a re-analysis of the deposited data

How the results depend on the processing

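The order of the organs by covered P450 genes (liver, kidney, lung, heart) was the same under every setting tried except among the 30 genes alone in their subfamily, where kidney and lung tied (13 in liver, 4 in kidney, 4 in lung and 0 in heart). In those 30 genes a region near an end was found for 20 in liver, 19 in kidney, 15 in lung and 14 in heart. All genes reached 53.3%, 56.8%, 54.7% and 51.4%. Liver and kidney were thus nearly level there, unlike the 69 and 41 of all 99 genes. Further counts there were 5 and 1 covered in liver or kidney with under 10% elsewhere. At least 2-fold more tags per kb was seen for 8 (liver over kidney), 5 (liver over lung), 5 (liver over heart) and 3 (kidney over lung). Fewer genes were counted there by construction.

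Covered genes numbered 8 in kidney and 3 in lung at 75% of the span, 5 in heart at 25%, and 3 in lung with the top-scoring 50% of regions. Genes with a region near an end numbered 21 in kidney, 10 in lung and 1 in heart with both ends required. They numbered 24, 13 and 5 with 50% of the window, and 26, 12 and 9 with the top-scoring 50% of regions. Regions of at least 1000 bp gave 25 such genes in kidney and 8 in heart, and a 500 bp window 12 in heart. Genes covered in 1 organ were 0 in kidney with 0% required elsewhere, and 1 in lung with under 25% allowed elsewhere or with regions of at least 1000 bp.

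Per kb of called region rather than of gene, genes at 2-fold or more numbered 12 (liver over kidney), 7 (liver over lung), 4 (liver over heart) and 0 for kidney over lung, kidney over heart and lung over heart. At 4-fold the counts were 13 for liver over kidney and 2 for lung over heart. Restricted to genes covered in both lists, an alternative chosen after seeing the data, they were 6 (liver over kidney), 2 (liver over lung), 1 (liver over heart), 1 (kidney over lung), 0 (kidney over heart) and 0 (lung over heart). Equal numbers of regions, a minimum of 10 tags and other cluster distances kept each count within 1.5 times. So did the scaling to shared genes for counts of genes with at least 2-fold more; the count with at least 2-fold fewer in lung than heart was then 0 in place of 1. No paired analysis was possible because each organ has 1 list and no replicate. Heart, with the fewest tags, had the highest lowest-called tag count, and polymerase below that level is not seen in a list.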
